A study of Mus musculus with 16 samples.

Results

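The 9 genes described here encode proteins that store calcium in skeletal muscle or carry ions across its membranes: the calcium pumps Atp2a1 and Atp2a2, the pump regulator Sln, the lumenal calcium binders Casq1, Casq2 and Srl, the junctional protein Jsrp1, the sodium channel Scn4a and the chloride channel Clcn1. They were listed by name, among 21883 protein-coding genes. For each antibody, overlapping peaks from its 4 libraries were joined into regions, and a gene received every region that overlapped its body, or that lay within 50 kb with this gene as the nearest protein-coding one. This gave 18 of 24345 MyoD regions and 39 of 60000 H3K27ac regions. The samples were LncMyoD-KD cells, in which small interfering RNA against the long noncoding RNA LncMyoD had been applied for 48 h, and Ctrl cells, both cultured satellite cells (muscle stem cells) from the hindlimb of C57BL/6 mice grown in F10 medium with horse serum. Each group had 2 ChIP-seq libraries for MyoD, a transcription factor of muscle commitment, and 2 for H3K27ac, a histone acetylation found at active promoters and enhancers. One treatment text, naming the siRNA against LncMyoD, stands in the labels of all samples, so Ctrl is known only from titles and genotype labels. Another 8 input samples were not analysed here. RNA was not measured, so neither the depletion of LncMyoD nor the transcript levels of the 9 genes are known, and no source used here says whether replicates are separate mice or cultures; p-values therefore cover only the spread of these libraries, which can be technical.

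In a muscle fibre, depolarisation spreads along the plasma membrane through voltage-gated sodium channels, is stabilised by chloride conductance, and is followed by calcium release from the sarcoplasmic reticulum. Between contractions calcium is pumped back by the SERCA enzymes and held in the reticulum by low-affinity binders such as calsequestrin. Most of these genes are switched on strongly only when myoblasts differentiate, and fast and slow fibres use different paralogues of the pump and of calsequestrin.

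Peak lists ranged from 13146 to 17818 peaks for MyoD and from 39964 to 54082 for H3K27ac. LncMyoD-KD 2 had the shortest list of both antibodies. Read depth is unknown, and a fold enrichment is the authors' value at a peak's summit within its own list. Of 7 satellite and myogenic markers, all 7 had an H3K27ac region present in all 4 libraries within 1 kb of the gene, among them Pax7, Myf5, Myod1 and Myog. Markers of other cells had such a region for 2 of 3 fibro-adipogenic, 3 of 3 endothelial (Pecam1, Cdh5 and Tek), 2 of 3 immune, 1 of 3 Schwann, 1 of 3 smooth muscle and 0 of 3 cardiac genes, while Pdgfra, Ptprc, Sox10, Myh11 and Cnn1 had 0 H3K27ac regions. Within 1 kb, MyoD regions present in all 4 libraries lay at 6 of 7 satellite and myogenic and 3 of 3 endothelial genes. They lay at 1 of 3 fibro-adipogenic, immune and smooth muscle genes each, and at 0 of 3 Schwann or cardiac genes. By the assignment rule above, 54.0% of all coding genes had such an H3K27ac region and 22.8% such a MyoD region. No such share is given for the 1 kb window, so the marker counts have no matched background. The part of other cells in the values below was not tested. In such bulk samples, fewer cells carrying a mark and less of the mark per cell cannot be told apart.

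For 5 of the 9 genes the RefSeq table of GRCm38.p6 gives a promoter, from 250 bases before to 50 after the transcription start. An H3K27ac peak covered the start of Atp2a1 in all 4 libraries. The H3K27ac peaks of all 4 libraries reached into the Casq1 promoter, where the start itself lay within the peak of LncMyoD-KD 1 alone. No H3K27ac peak covered the start of Casq2 or Clcn1, which are shown as a contrast and were picked after the values were seen. Capitals mark every E-box, the motif CANNTG bound by MyoD and related factors, searched on both strands, which for this palindromic pattern are the same sites.
Atp2a1, chr7:126463024-126463323, minus strand: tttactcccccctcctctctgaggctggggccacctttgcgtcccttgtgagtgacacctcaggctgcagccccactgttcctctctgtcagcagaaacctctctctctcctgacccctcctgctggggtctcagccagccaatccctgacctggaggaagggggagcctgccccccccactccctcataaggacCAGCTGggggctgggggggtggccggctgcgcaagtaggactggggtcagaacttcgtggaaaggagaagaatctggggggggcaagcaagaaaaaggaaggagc
Casq1, chr1:172219846-172220145, minus strand: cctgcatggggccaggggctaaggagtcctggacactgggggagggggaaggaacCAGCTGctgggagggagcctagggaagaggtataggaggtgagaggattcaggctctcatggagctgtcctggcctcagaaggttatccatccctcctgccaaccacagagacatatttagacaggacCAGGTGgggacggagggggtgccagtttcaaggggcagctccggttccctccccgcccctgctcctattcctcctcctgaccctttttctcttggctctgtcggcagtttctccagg
Casq2, chr3:102086165-102086464, plus strand: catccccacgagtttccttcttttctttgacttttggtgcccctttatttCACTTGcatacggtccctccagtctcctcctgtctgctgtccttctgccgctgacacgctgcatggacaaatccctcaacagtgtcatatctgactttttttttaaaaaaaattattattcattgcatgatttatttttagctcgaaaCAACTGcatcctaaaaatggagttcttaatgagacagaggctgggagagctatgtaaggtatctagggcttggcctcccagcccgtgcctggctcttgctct
Clcn1, chr6:42286435-42286734, plus strand: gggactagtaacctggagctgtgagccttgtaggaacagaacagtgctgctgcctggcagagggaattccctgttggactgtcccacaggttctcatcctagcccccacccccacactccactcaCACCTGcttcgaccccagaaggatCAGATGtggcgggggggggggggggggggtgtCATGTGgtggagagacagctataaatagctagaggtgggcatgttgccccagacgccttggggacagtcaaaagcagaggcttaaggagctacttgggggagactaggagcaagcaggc
Atp2a1 had 1 E-box, a CAGCTG that began 55 bases before the start. In the Casq1 promoter a CAGCTG began 195 bases and a CAGGTG 67 bases before the start. Casq2 had 2 E-boxes, at 200 and 52 bases before the start, and Clcn1, without a region of either antibody, had the most, 3, at 125, 101 and 69 bases before the start. The promoter at the listed start of Scn4a, which lies inside the gene body, held 0. Among 32851 promoters of this length, 72.3% held at least 1 CANNTG and 16.3% a CAGCTG, and 0 of the 5 promoters was covered by a called MyoD region, so these matches are descriptions of the letters only.

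Atp2a1 encodes SERCA1, the calcium pump of fast fibres (chr7:126445858-126463103, minus strand). Its strongest MyoD region, chr7:126464132-126464671, lay 1.03 kb outside the gene on the side of the start. Fold enrichment there was 11.4 and 8.23 in the LncMyoD-KD libraries, against 14.9 and 13.6 in the Ctrl libraries (replicate 1 before replicate 2, here and below). Both LncMyoD-KD values were below both Ctrl values, and the 4 summits fell within 58 bp of each other. A second MyoD region inside the gene, chr7:126461043-126461390, had a fold of 6.26 in LncMyoD-KD 1 and no peak in LncMyoD-KD 2, against 6.61 and 5.63 in the Ctrl libraries. A weaker one, chr7:126447566-126447851, was called in Ctrl 2 alone at a fold of 3.22. One broad H3K27ac region of 6643 bp (chr7:126460786-126467428) contained both stronger MyoD regions and the start, and reached folds of 16.6 and 15.7 in the LncMyoD-KD libraries and 12.6 and 16.6 in the Ctrl libraries, so that the groups overlapped. It also reached into the neighbouring gene Sh2b1, an adaptor of receptor signalling, and held another MyoD region nearer to that gene (chr7:126465543-126466089), with folds of 17.3 and 9.96 in the LncMyoD-KD libraries and 9.82 and 15.2 in the Ctrl libraries.

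Atp2a2 encodes SERCA2, the pump of slow and cardiac muscle and of most other cells (chr5:122453513-122502225). A single MyoD region was present in all 4 libraries, chr5:122501663-122502151, inside the gene and 0.074 kb from its upper end, with folds of 6.26 and 4.31 in the LncMyoD-KD libraries and 5.29 and 7.29 in the Ctrl libraries. The values of the groups overlapped. Around it lay an H3K27ac region of 2713 bp (chr5:122500247-122502959) with folds of 18.0 and 16.7 in the LncMyoD-KD libraries and 18.8 and 15.4 in the Ctrl libraries, which included the highest H3K27ac value at any of the 9 genes. Another MyoD region 7.55 kb above the gene had a peak in Ctrl 2 alone, at a fold of 5.44. Of 5 H3K27ac regions at Atp2a2, the other 4 were narrow, 182 or 184 bp, and each was called in 1 Ctrl library alone at folds of 2.60 to 3.85.

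Sln encodes sarcolipin, a small membrane peptide that inhibits the SERCA pumps (chr9:53850251-53853849). No H3K27ac region overlapped its body. The main signal was a pair of MyoD regions inside 1 H3K27ac region of 1768 bp (chr9:53834990-53836757), 13.5 kb below the gene and 16.8 kb from the next gene, Slc35f2. At the stronger MyoD region, chr9:53835833-53836514, folds were 15.1 and 14.1 in the LncMyoD-KD libraries and 12.6 and 17.2 in the Ctrl libraries, with the LncMyoD-KD values between the Ctrl values. Its neighbour, chr9:53835105-53835507, had no peak in LncMyoD-KD 1 and a fold of 7.05 in LncMyoD-KD 2, against 5.36 and 8.61 in the Ctrl libraries. H3K27ac at this place was 8.73 and 7.26 in the LncMyoD-KD libraries and 7.06 and 9.21 in the Ctrl libraries, again without a separation of the groups. In the H3K27ac libraries LncMyoD-KD 2 and Ctrl 1, which each had 2 peaks there, the MyoD summits of the same group at the stronger region lay outside both peaks. In LncMyoD-KD 1 and Ctrl 2 they lay within the single H3K27ac peak. MyoD peaks nearer to Sln were called in 1 library each, 7.10 kb below the gene in Ctrl 2 (fold 4.97) and inside the gene in LncMyoD-KD 2 (fold 3.92).

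**Figure D1:**
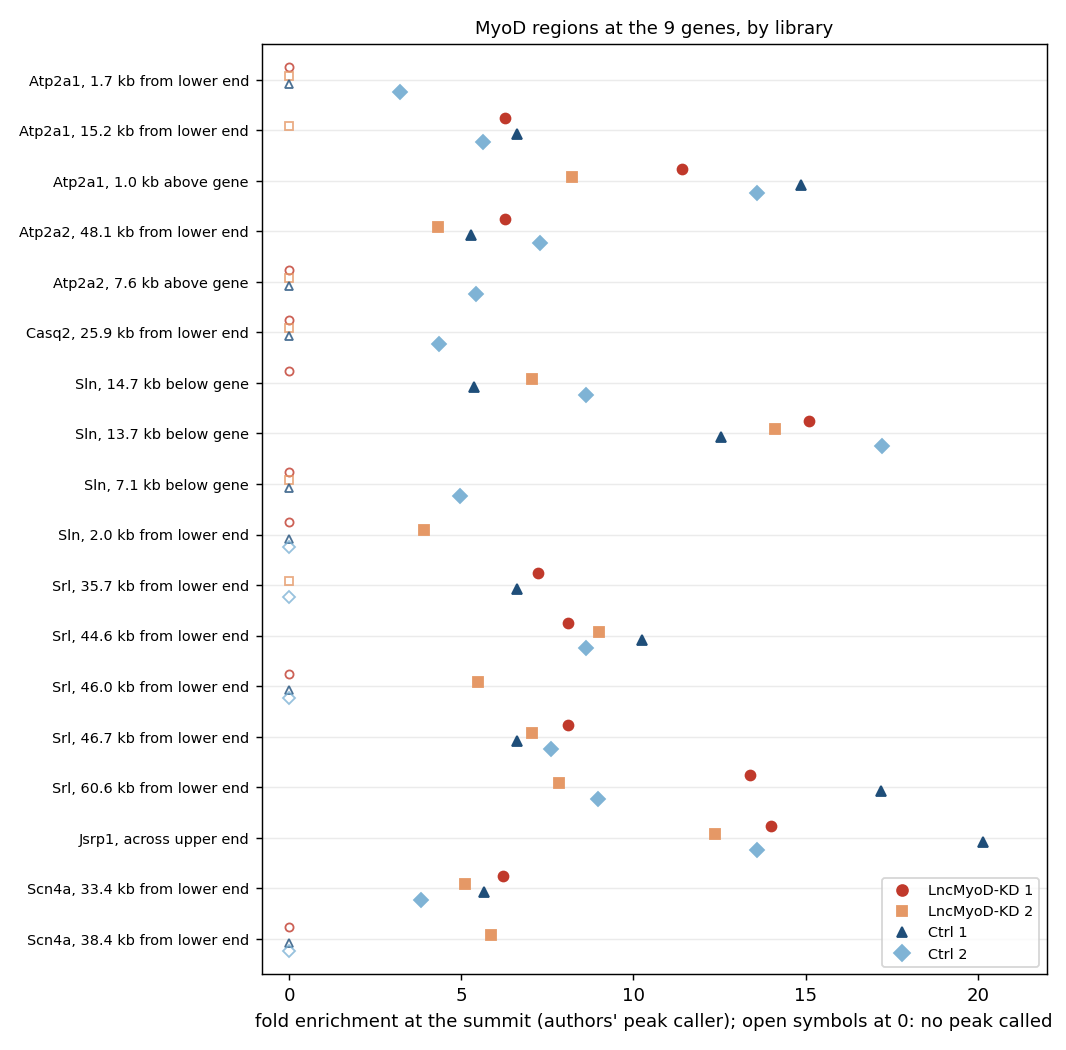
Fold enrichment of each of the 18 MyoD regions (rows, with the distance from an end of the gene body) in the 2 LncMyoD-KD and 2 Ctrl libraries, where an open symbol at 0 means that no peak was called. The 8 regions with 4 filled symbols reach 3.84 to 20.2, and the 7 regions with 1 filled symbol lie at 3.22 to 5.88.

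Casq1, the calsequestrin of fast fibres (chr1:172209894-172219895, minus strand), had 0 MyoD regions under the rule. An H3K27ac region of 4063 bp (chr1:172219881-172223943) lay upstream of the gene, reached over its start in LncMyoD-KD 1 alone, and ran into Atp1a4, a sodium pump subunit of the germ line. Its folds were 15.1 and 11.6 in the LncMyoD-KD libraries and 7.72 and 10.7 in the Ctrl libraries, so both LncMyoD-KD values were above both Ctrl values. A MyoD peak inside that acetylated region, assigned to Atp1a4, was called in LncMyoD-KD 1 alone at a fold of 7.0 (chr1:172222337-172222582). Within Casq1, chr1:172216777-172217267 was acetylated in all 4 libraries, at folds of 7.10 and 5.23 in the LncMyoD-KD libraries and 5.02 and 6.21 in the Ctrl libraries.

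Casq2, the calsequestrin of slow and cardiac muscle (chr3:102086415-102146514, plus strand), had many weak H3K27ac regions and almost no MyoD. Of its 8 H3K27ac regions 4 were present in all libraries, and the highest fold at any of these was 6.51. The region covering part of its promoter (chr3:102085839-102086260) was called in LncMyoD-KD 1 at 3.82 and in Ctrl 1 at 4.09, and in neither replicate 2. Upstream of the gene by 16.1 kb, chr3:102069469-102070362 had folds of 6.19 and 5.66 in the LncMyoD-KD libraries, against 3.16 and 3.50 in the Ctrl libraries, and the groups did not overlap. The single MyoD region, chr3:102112288-102112512 in the gene, was called in Ctrl 2 alone at 4.34 and lay in an H3K27ac region present in all 4 libraries.

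Srl encodes sarcalumenin, a calcium-binding glycoprotein of the reticulum lumen (chr16:4476979-4541908), and carried the most regions of both antibodies among the 9 genes, 5 for MyoD and 16 for H3K27ac, over a body of 64.9 kb. At least as many MyoD regions were found at 4.51% of coding genes and at least as many H3K27ac regions at 2.35%, with no correction for gene length. Its MyoD regions were gathered in the upper part of the gene, from 35.7 to 60.6 kb above the lower end. At chr16:4537542-4538159, folds were 13.4 and 7.84 in the LncMyoD-KD libraries and 17.2 and 8.98 in the Ctrl libraries, so replicate 1 was the higher in both groups. The region chr16:4521611-4522088 had folds of 8.10 and 9.01 in the LncMyoD-KD libraries and 10.2 and 8.61 in the Ctrl libraries, and chr16:4523636-4524035, nearby, had 8.10 and 7.05 in the LncMyoD-KD libraries and 6.61 and 7.62 in the Ctrl libraries. All 3 were present in every library, and the folds of the groups overlapped at each. Of the other 2, chr16:4512665-4513086 was called at 7.21 in LncMyoD-KD 1 and at 6.61 in Ctrl 1, and chr16:4523013-4523267 at 5.49 in LncMyoD-KD 2 alone.

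Among the H3K27ac regions of Srl present in all 4 libraries, those with MyoD were wider and had higher folds. A wider region overlaps a MyoD region more easily, so the sorting itself can give part of this contrast. Over all H3K27ac regions of 4 libraries, median widths were 1996 bp with and 1486 bp without MyoD. The 3 H3K27ac regions of all 4 libraries that held MyoD regions were 3720 to 4627 bp wide with folds of 8.92 to 17.2, and the other 6 were 742 to 1651 bp wide with folds of 3.70 to 8.55. In the region around the nearby MyoD sites, chr16:4520033-4524619, H3K27ac was 10.8 and 12.1 in the LncMyoD-KD libraries, against 14.7 and 17.2 in the Ctrl libraries, and both LncMyoD-KD values were the lower. The opposite order was found at chr16:4511418-4515137, with 11.8 and 11.6 in the LncMyoD-KD libraries and 8.92 and 10.5 in the Ctrl libraries, and at chr16:4474116-4475223, 1.76 kb below the gene, with 8.55 and 7.77 in the LncMyoD-KD libraries and 5.39 and 6.81 in the Ctrl libraries. At the remaining H3K27ac regions of Srl present in all 4 libraries, the folds of the groups overlapped. Where they did not, the order thus went both ways. Folds belong to their own list, and whether acetylation of the gene changed was not tested.

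**Figure D2:**
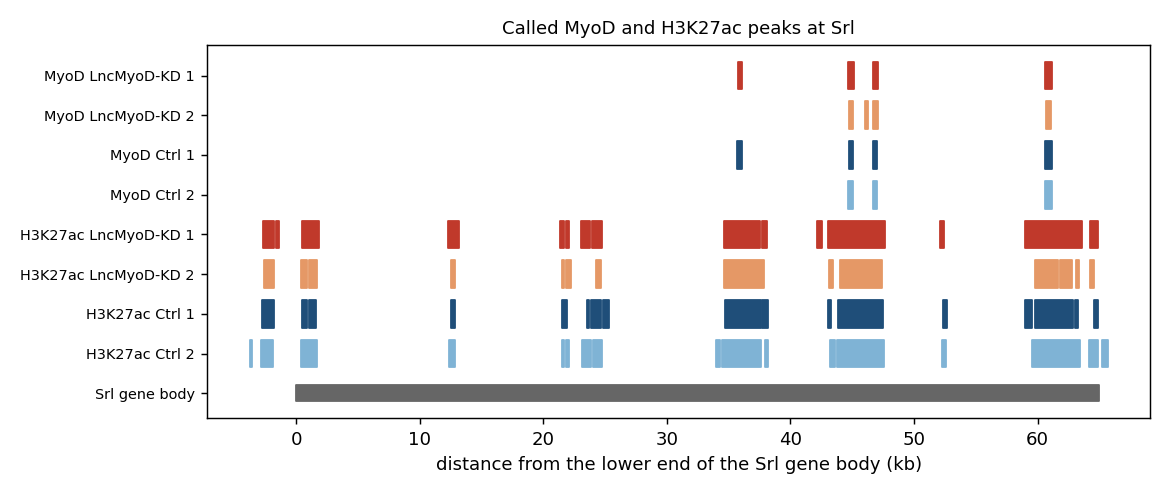
Peaks called at Srl in each library (rows, LncMyoD-KD above Ctrl within each antibody), as bars at their distance in kb from the lower end of the gene body, which is the grey bar of 64.9 kb. MyoD peaks lie in the upper part of the gene inside the 3 widest H3K27ac regions, while H3K27ac also marks the lower end.

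Jsrp1 encodes JP-45, a protein of the junction between the reticulum and the transverse tubules that binds calsequestrin and the dihydropyridine receptor (chr10:80808494-80813741). It had 1 region of each antibody, both across its upper end. The MyoD region, chr10:80813131-80813863, had folds of 14.0 and 12.4 in the LncMyoD-KD libraries and 20.2 and 13.6 in the Ctrl libraries, the value of Ctrl 1 being the highest MyoD value at the 9 genes. The other 3 values lay within 12.4 to 14.0, LncMyoD-KD 1 being above Ctrl 2. H3K27ac around it (chr10:80811883-80814307) was 14.9 and 13.6 in the LncMyoD-KD libraries and 13.8 and 16.5 in the Ctrl libraries.

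Scn4a encodes Nav1.4, the sodium channel that carries the action potential of skeletal muscle (chr11:106317545-106365559, minus strand). MyoD was present in all 4 libraries at chr11:106350909-106351324, inside the gene body and 14.2 kb from its upper end. The listed start, chr11:106349390, also lay inside the gene body, and the centre of the MyoD region was 1.73 kb upstream of it. Folds of this region were low, 6.21 and 5.09 in the LncMyoD-KD libraries and 5.65 and 3.84 in the Ctrl libraries, and overlapped between groups. H3K27ac over this place (chr11:106350589-106352055) was 6.16 and 6.76 in the LncMyoD-KD libraries and 6.25 and 7.47 in the Ctrl libraries. A further H3K27ac region, chr11:106355233-106356503, had 5.46 and 4.46 in the LncMyoD-KD libraries and 4.83 and 4.14 in the Ctrl libraries, and contained a MyoD peak of LncMyoD-KD 2 alone with a fold of 5.88. Clcn1, the ClC-1 chloride channel that sets the resting conductance of the fibre (chr6:42284851-42315764, plus strand), had 0 regions of either antibody. The nearest MyoD region lay 27.6 kb away and was assigned to Zyx, a focal adhesion gene, with a fold of 4.42 in LncMyoD-KD 1 and no peak in LncMyoD-KD 2, against 5.29 and 4.64 in the Ctrl libraries, and the nearest H3K27ac region lay 18.6 kb away in Casp2, with 8.73 and 4.09 in the LncMyoD-KD libraries and 8.74 and 6.81 in the Ctrl libraries.

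**Figure D3:**
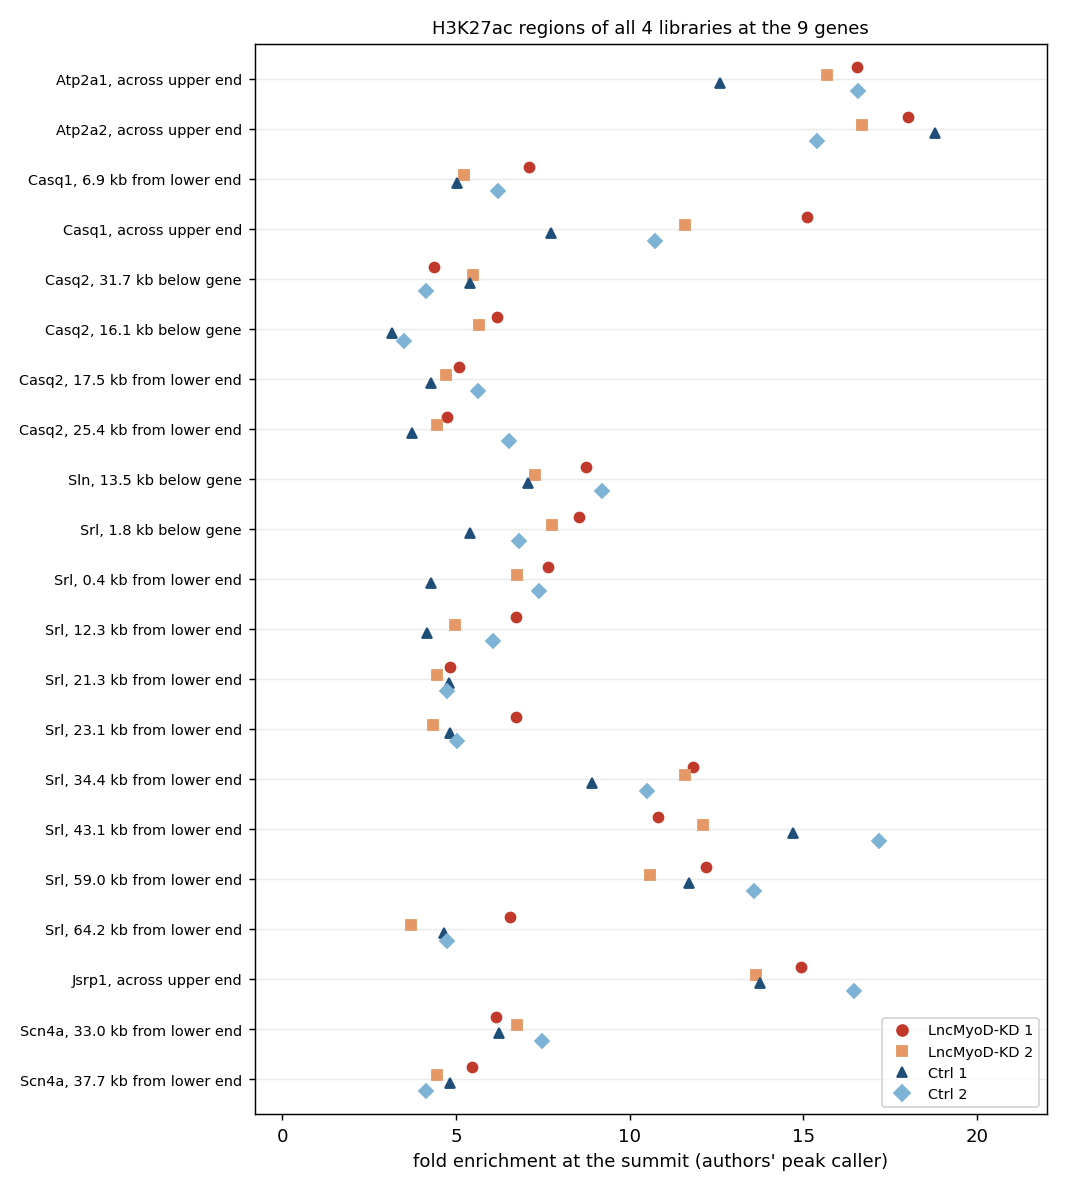
H3K27ac fold enrichment of the 21 regions present in all 4 libraries at the 9 genes (rows), for the 2 LncMyoD-KD and the 2 Ctrl libraries. The regions across the upper ends of Atp2a1, Atp2a2 and Jsrp1 lie at 12.6 to 18.8 in every library, and the regions of Casq2 at 3.16 to 6.51.

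The series compared LncMyoD-KD with Ctrl cells, and at these genes neither antibody lost or gained a region in a whole group. Control-only regions, with a peak in both Ctrl and in neither LncMyoD-KD library, numbered 0 of 18 for MyoD, beside 4.54% of all MyoD regions. An approximate 95% upper limit for a count of 0, 3 divided by the number of regions, allows a share of up to 16.7%. This limit treats regions as independent. For H3K27ac, control-only regions numbered 0 of 39, which allows up to 7.69% in the same way, beside 1.46% of all regions. Knockdown-only regions, the reverse, numbered 0 for both antibodies, beside 0.727% of all MyoD and 0.768% of all H3K27ac regions. All of these background shares lie below the limit that a count of 0 allows here, so with so few regions a share equal to the background cannot be told from 0. With peaks within 1000 bp merged, 1 H3K27ac region of Atp2a2 became control-only (chr5:122461291-122462095), at folds of 2.60 and 3.03 in the Ctrl libraries. When only peaks with a −log10 q of at least 5 were used, the H3K27ac region 16.1 kb upstream of Casq2 became knockdown-only. The shares of all regions under these settings are not given.

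Of the 18 MyoD regions 8 (44.4%) were present in all 4 libraries, beside 40.7% of all MyoD regions, and of the 39 H3K27ac regions 21 (53.8%), beside 43.5% of all. They included MyoD regions of 6 genes, all but Casq1, Casq2 and Clcn1, and H3K27ac regions of 8 genes, all but Clcn1. Peaks of 1 library alone made up 7 MyoD regions (38.9%, beside 30.8% of all), 3 of them from LncMyoD-KD 2 and 4 from Ctrl 2, and 14 H3K27ac regions (35.9%, beside 33.2% of all), 3 from LncMyoD-KD 1, 3 from Ctrl 1 and 8 from Ctrl 2. Such H3K27ac regions had folds of 2.57 to 3.85.

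Peak numbers at the 9 genes were 10 and 12 for MyoD in the LncMyoD-KD libraries and 11 and 14 in the Ctrl libraries, with means of 11 ± 1.41 and 12.5 ± 2.12 (SD, n = 2 each). The difference of −1.5 was within the spread between libraries (two-sided exact permutation p = 0.667; the smallest p that 2 against 2 libraries can give is 0.333). For H3K27ac there were 33 and 29 peaks in the LncMyoD-KD libraries and 38 and 38 in the Ctrl libraries, with means of 31 ± 2.83 and 38 ± 0 (SD, n = 2 each; difference −7, two-sided exact permutation p = 0.333). The whole LncMyoD-KD 2 list was the shortest, and that of LncMyoD-KD 1, with 33 peaks here, was the longest at 54082. The part of list length in this difference was not tested. These peaks were 0.0611% and 0.0726% of the LncMyoD-KD lists and 0.0822% and 0.0717% of the Ctrl lists. Fewer peaks did not always go with less acetylated length. At Srl, 15 and 14 peaks covered 19.2 and 13.6 kb in the LncMyoD-KD libraries, and 17 and 17 peaks 16.0 and 18.2 kb in the Ctrl libraries. There LncMyoD-KD 1 had the greatest length, while LncMyoD-KD 2 had both the fewest peaks and the least length. The length over all 9 genes is not given. With the same number of peaks taken from every list, the group difference over the 9 genes was 0 for H3K27ac and 0.5 for MyoD.

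Because folds belong to their own list, regions present in all 4 libraries were also ranked within each library over the same set of regions, 9912 for MyoD and 26123 for H3K27ac, as percentiles with 100 the highest. MyoD upstream of Atp2a1 stood at percentiles 72.1 and 56.1 in the LncMyoD-KD libraries and 87.3 and 84.0 in the Ctrl libraries, and was the 1 of 8 regions (12.5%) ranked lower in both LncMyoD-KD libraries, beside 15.9% of all MyoD regions so ranked. The region of Srl at chr16:4523636-4524035 was the 1 of 8 ranked higher, with 43.1 and 41.0 in the LncMyoD-KD libraries and 24.2 and 38.2 in the Ctrl libraries, beside 16.4% of all. Merging peaks within 1000 bp left 0 MyoD regions in either class. The median rank difference between the groups over the 8 regions was −4.72 percentile points, against 0.0404 over all regions. Without sign, the median group difference was 7.54 over the 8 regions and 8.50 over all. Between the 2 LncMyoD-KD libraries it was 12.8 and 12.9. Group differences are between means of 2 libraries, so they are not on the same footing as those between single libraries.

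Among H3K27ac ranks, 2 of 21 regions (9.52%) were lower in both LncMyoD-KD libraries, beside 15.9% of all, and 4 of 21 (19.0%) were higher, beside 16.4% of all. The 2 lower ones lay in Srl. One of these, around the nearby MyoD sites (chr16:4520033-4524619), stood at 67.5 and 85.0 in the LncMyoD-KD libraries and 90.3 and 91.9 in the Ctrl libraries. The other (chr16:4535938-4540564) stood at 75.0 and 78.2 in the LncMyoD-KD libraries and 80.0 and 82.5 in the Ctrl libraries, while its folds, 12.2 and 10.6 in the LncMyoD-KD libraries and 11.7 and 13.6 in the Ctrl libraries, overlapped. The higher ones were those of Casq1 at its upper end, with 86.5 and 82.9 in the LncMyoD-KD libraries and 55.3 and 70.7 in the Ctrl libraries, of Casq2 at 16.1 kb upstream, with 28.7 and 33.5 in the LncMyoD-KD libraries and 2.95 and 1.64 in the Ctrl libraries, and the 2 regions of Srl named above. Those shares were near the background, and no test over 2 against 2 libraries can call a single region.

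**Figure D4:**
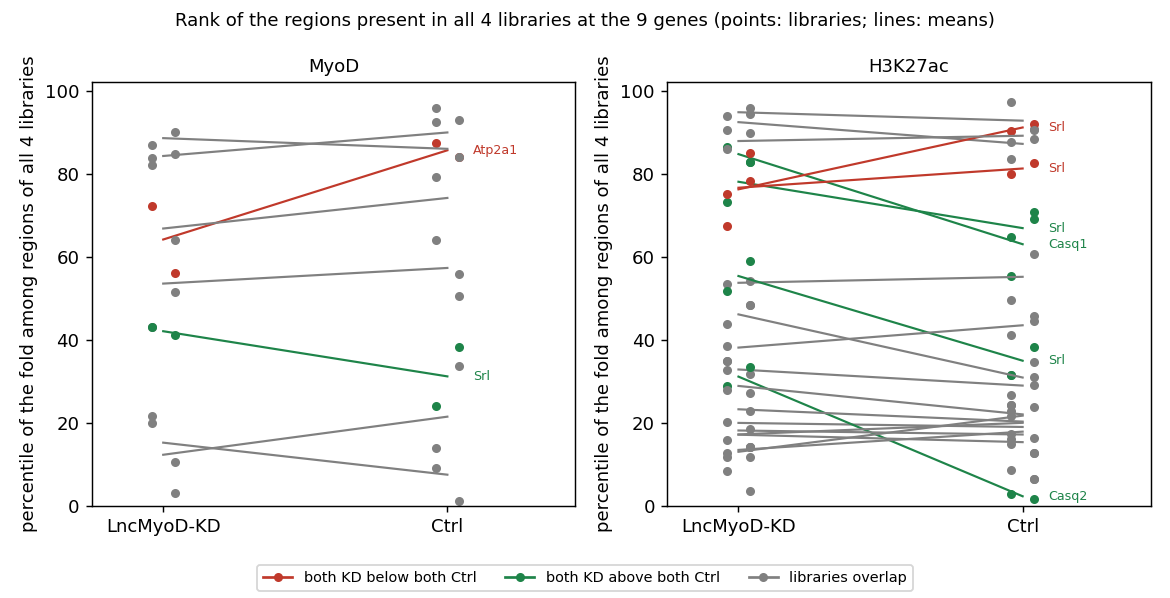
Percentile of the fold of each region of the 9 genes among all regions present in 4 libraries, for LncMyoD-KD (left) and Ctrl (right) within each panel; points are libraries and lines join group means. Regions whose libraries do not overlap between the groups are coloured, 1 lower and 1 higher of 8 for MyoD and 2 lower and 4 higher of 21 for H3K27ac.

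MyoD sites at these genes lay largely in acetylated chromatin. Of the 18 MyoD regions 15 shared at least 1 base with an H3K27ac region (83.3%, 95% Clopper-Pearson interval 58.6% to 96.4%, counting error over regions only), beside 69.6% of all MyoD regions, and all 8 present in every library did, beside 88.9% of all such regions. The 3 without an overlapping H3K27ac region were the single-library peaks 7.55 kb above Atp2a2, 7.10 kb below Sln and inside Sln. Overlap of regions does not place every summit in an H3K27ac peak. At the Scn4a region present in all 4 libraries, the LncMyoD-KD 2 summit lay outside the peaks of both LncMyoD-KD H3K27ac libraries. At the Atp2a1 region of Ctrl 2 alone, the summit lay outside those of both Ctrl libraries. Per library, 10 of 10 and 10 of 12 MyoD summits of LncMyoD-KD 1 and 2 lay in an H3K27ac peak of at least 1 LncMyoD-KD library, and 11 of 11 and 11 of 14 summits of Ctrl 1 and 2 in one of the Ctrl libraries. Over all MyoD peaks these shares were 65.1% and 66.7% in the LncMyoD-KD libraries and 63.5% and 63.0% in the Ctrl libraries.

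In the other direction, 12 of 39 H3K27ac regions (30.8%) held a MyoD region, beside 26.4% of all. Of the 21 present in all 4 libraries, the 11 with MyoD had a median width of 2713 bp and the 10 without 865 bp, beside 1996 and 1486 bp over all such regions. Median H3K27ac folds of the 11 with MyoD were 11.8 and 11.6 in the LncMyoD-KD libraries and 8.92 and 10.7 in the Ctrl libraries, and of the 10 without 6.64 and 5.10 in the LncMyoD-KD libraries and 4.73 and 5.33 in the Ctrl libraries. Over all such regions the medians were 9.46 and 8.03 in the LncMyoD-KD libraries and 8.18 and 9.47 in the Ctrl libraries with MyoD, and 7.64 and 6.25 in the LncMyoD-KD libraries and 6.32 and 7.10 in the Ctrl libraries without. MyoD summits lay within 35 to 100 bp over the 4 libraries at each of the 8 regions. Only overlapping peaks were joined, which itself limits this span, and no span over all regions is given here.

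Across all coding genes, 22.8% had a MyoD region present in all 4 libraries, 54.0% an H3K27ac region and 20.5% both, against 6, 8 and 6 of the 9 genes. By number of MyoD regions Srl was followed by Sln with 4, Atp2a1 with 3, Atp2a2 and Scn4a with 2, Jsrp1 and Casq2 with 1, and Casq1 and Clcn1 with 0. The rule also left out 16 MyoD and 81 H3K27ac regions within 50 kb that were nearer to, or inside, another gene; the farthest regions taken lay 14.7 kb (MyoD, Sln) and 31.7 kb (H3K27ac, Casq2) from their gene.

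Related genes were counted in the same way. Of 32 further genes of calcium handling, not all of them of the reticulum, 24 had a MyoD region present in all 4 libraries. This stands beside 22.8% of all coding genes. Among their 104 MyoD regions 4 were control-only and 0 knockdown-only. The 4 lay at Jph1 and Jph2 (junctophilins, which tether the reticulum to the transverse tubule), Cacnb1 (a calcium channel subunit) and Itpr2 (an inositol trisphosphate receptor). The control-only share was 3.85%, beside 4.54% of all MyoD regions. Ctrl folds of these 4 regions were 4.63 and 5.63 at Jph1, 5.95 and 6.62 at Jph2, 5.29 and 5.30 at Cacnb1 and 5.62 and 6.29 at Itpr2. For H3K27ac, 4 of 236 regions were control-only, at Jph2, Cacna2d1, Pvalb and Tmem38a, and 1 was knockdown-only, at Itpr1, with folds of 2.76 and 3.95 in the LncMyoD-KD libraries. These shares, 1.69% control-only and 0.424% knockdown-only, stand beside 1.46% and 0.768% of all H3K27ac regions. The Ctrl folds of the 4 control-only regions ranged from 2.79 at Jph2 and Tmem38a to 5.33 at Cacna2d1. Of 16 further genes of muscle ion transport, 10 had a MyoD region in all 4 libraries, beside the same 22.8% of all coding genes. Among their 42 MyoD regions 2 were control-only, at Atp1b1 and Kcnma1. Another 1 was knockdown-only, at Kcnj2, an inward rectifier potassium channel, with folds of 3.68 and 5.09 in the LncMyoD-KD libraries. These were 4.76% control-only and 2.38% knockdown-only, beside 4.54% and 0.727% of all MyoD regions, and shares of so few regions rest on 1 or 2 of them. Ctrl folds were 3.32 and 4.97 at Atp1b1, a sodium pump subunit, and 4.96 and 6.95 at Kcnma1, a calcium-activated potassium channel. The control-only shares given here were near those of all regions. Most MyoD regions were held by Itpr2 with 14, of which 4 were present in all libraries, the potassium channel gene Kcnn3 with 10, of which 7 were, and Jph2 with 8, of which 4 were.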

How the data were processed

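ChIP-seq peak lists of 8 libraries (MyoD and H3K27ac, each 2 LncMyoD-KD and 2 Ctrl) were used. Per the submitters' processing notes, the authors worked on mm10 and used MACS2 2.1.1, bedtools 2.26.0, SAMtools 1.3, Bowtie2 2.3.2 and Picard 2.9.2. Their options, and the input paired with each library, are not stated in any source used. The deposited lists, 1 per library and not pooled, give each peak a fold enrichment (a linear ratio), −log10 of its p-value and q-value, and a score equal to 10 times the −log10 q rounded down. They hold no read counts, so depth is unknown and no count test was possible.

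Peaks on chromosomes 1 to 19, X and Y were merged per antibody (gap 0 bp, touching peaks joined), in Python 3.11.15 with pandas 2.3.3, numpy 2.4.6 and scipy 1.17.1; code was tested on simulated peak lists. A region's fold in a library is the highest of its peaks there. Gene bodies are those of RefSeq on GRCm38.p6, the assembly of mm10, where all 9 genes matched by symbol; the table has no strand, exons or UTRs, and strand and start were taken from the RefSeq promoter table for the 5 genes it lists, so lower and upper end otherwise mean smaller and larger coordinate. Coordinates are 1-based, and distances run from region edge to gene body. Differences in peak numbers were tested by exact permutation of the libraries (two-sided, 6 assignments). No set test or resampling was used. All 9 genes are described; of the 48 related genes, those named hold a group-only region or are the 3 with most MyoD regions. The H3K27ac group-only regions of the ion transport list are not reported here. The genes, lists and tests were chosen with earlier results of these data known. E-boxes at peak summits were not searched because no genome sequence was used here.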

Additional observations from a re-analysis of the deposited data

How the results depend on the processing

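Alternatives were a −log10 q of at least 5, equal peak numbers (13146 for MyoD, 39964 for H3K27ac), merging within 1000 bp, a window of 10 kb or of the gene body alone, 50% coverage for co-occupancy, and each library left out. The MyoD peak difference of −1.5 turned to 0.5 with equal peak numbers, and ranged from −3 to 0 with a library left out. With a −log10 q of at least 5, 13 H3K27ac regions were present in all 4 libraries and 1 was knockdown-only; merging within 1000 bp made 1 H3K27ac region control-only. The H3K27ac peak difference of −7 was 0 with equal peak numbers or a −log10 q of at least 5, and −9 to −5 with a library left out. The cause of these changes was not tested.

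With a library left out, the group-only classes are looser: the reduced group is judged by its 1 remaining library alone. Control-only MyoD regions then numbered 0 to 4 (4 of 18 without Ctrl 1) and knockdown-only MyoD regions 0 to 3 (3 of 18 without LncMyoD-KD 1). Control-only H3K27ac regions numbered 0 to 10 (10 of 41 without Ctrl 1) and knockdown-only ones 0 to 3 (3 of 40 without LncMyoD-KD 2). Shares of all regions under this looser rule are not given, so these counts have no matched background. Regions of Ctrl 2 alone, which become control-only without Ctrl 1, made up 9.81% of all MyoD and 12.1% of all H3K27ac regions. Regions of LncMyoD-KD 2 alone were 3.82% of all MyoD regions, and of LncMyoD-KD 1 alone 15.9% of all H3K27ac regions. The share of co-occupied MyoD regions lay between 77.8% and 92.9% under every alternative run. Ranks were added after seeing the data: with the gene body alone, 0 MyoD regions were ranked lower and 2 H3K27ac regions higher. With the replicate numbers as a block, the peak differences were −1.5 and −7 with an exact sign-flip p of 0.5 each, the smallest it can give. The numbers share no stated source, and the correlation of replicate deviations was 0.104 for MyoD and 0.155 for H3K27ac across regions. Unknown depth limits all presence calls.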
